A study of Mus musculus with 6 samples.

Results

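Transcripts of cholangiocyte and progenitor markers and of the keratins of liver epithelium were examined on arrays of whole liver from 3 control and 3 mutant male mice, all aged 3 weeks. The genes were Krt7, Krt8, Krt18, Krt19, Krt23, Epcam, Sox9, Spp1 and Cd24a, a set chosen by name with earlier results of these data known. All probe sets annotated with 1 gene symbol, that of one of the 9 genes, were taken. This gave 15 probe sets of 8 genes, out of 45037 probe sets and 18193 annotated genes on the array. No probe set carried the symbol Spp1 in the annotation used, so osteopontin was not analysed here.

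Control mice had 1 loxP-flanked and 1 normal copy of Srf (Srf loxP/+ AlfpCre), and mutant mice had both copies flanked (Srf loxP/loxP AlfpCre). All 6 carried the AlfpCre transgene, so the comparison does not show effects of Cre or of a single flanked copy. In AlfpCre, albumin regulatory sequences with an alpha-fetoprotein enhancer drive Cre in the epithelial cells of the liver; the tissue also holds blood, vessel and stellate cells, in which these sequences are not active. The sources used here do not give strain or litter. The comparison asks how these transcripts differ once Cre can remove both copies of Srf, the gene of serum response factor.

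Keratins are intermediate filament proteins that assemble as pairs of a type I and a type II chain. Hepatocytes make the pair of Krt8 (type II) and Krt18 (type I), which protects them from mechanical and toxic stress. Cholangiocytes, the cells that line bile ducts, add Krt7 (type II) and Krt19 (type I). Epcam, an adhesion protein, Sox9, a transcription factor of bile duct formation, and Cd24a, a small glycoprotein of the cell surface, mark cholangiocytes and the progenitor cells that spread from ducts in injured liver.

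Values are log2 signals after each array was scaled to a common trimmed mean. With 3 arrays per group, their number limits the precision. Background was estimated as the 95th percentile of 81 receptor probe sets assumed silent in liver, at 2.88 in controls, against 3.06 in mutants. The targeted gene Srf did not pass the test on its brighter probe set (1418256_at), at 5.31, 5.14 and 5.11 in controls, against 4.17, 5.24 and 2.54 in mutants (adjusted p = 0.398, limma). On 1418255_s_at, Srf gave 3.00, 3.69 and 3.37 in controls, against 3.29, 0 (the floor) and 1.99 in mutants (adjusted p = 0.411, limma). The lowest array was thus mutant 3 on the brighter probe set and mutant 2 on the dimmer one. The sources used here do not say whether either probe set lies within the deleted part. The 3' to 5' signal ratio of control transcripts, a measure of RNA integrity, had a mean log2 index of 0.91, 0.78 and 1.22 in controls, against 2.18, 1.18 and 1.57 in mutants 1 to 3 (two-sided exact permutation p = 0.2, where 0.1 is the smallest possible). Hepatocyte markers were bright on all arrays, with albumin (Alb) between 12.53 and 13.30.

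Krt8 and Krt18 are protein-coding neighbours on chromosome 15. SRF binds the CArG box, a run of A and T between CC and GG. The stretches before the annotated starts of Krt8, Krt18 and Krt23, the keratins with the brightest signals, are shown so that the absence of this motif can be read. They come from RefSeq (GRCm38.p6), end 10 bases after the start, and carry in capitals any TATAAA on either strand; the capitals in Krt8 are a pair of overlapping matches. They lie at chr15:102004333-102004592 (minus strand), chr15:102027966-102028225 (plus strand) and chr11:99493111-99493370 (minus strand).
Krt8: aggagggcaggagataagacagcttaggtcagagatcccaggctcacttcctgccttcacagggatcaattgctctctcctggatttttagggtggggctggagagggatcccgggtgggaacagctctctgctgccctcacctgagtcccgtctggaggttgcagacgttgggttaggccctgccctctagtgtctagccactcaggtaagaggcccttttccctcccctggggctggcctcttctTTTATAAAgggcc
Krt18: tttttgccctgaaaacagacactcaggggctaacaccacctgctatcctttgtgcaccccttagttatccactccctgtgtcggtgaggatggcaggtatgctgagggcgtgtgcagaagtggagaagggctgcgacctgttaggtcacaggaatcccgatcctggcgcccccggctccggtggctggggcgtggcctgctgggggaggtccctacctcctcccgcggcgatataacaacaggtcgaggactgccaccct
Krt23: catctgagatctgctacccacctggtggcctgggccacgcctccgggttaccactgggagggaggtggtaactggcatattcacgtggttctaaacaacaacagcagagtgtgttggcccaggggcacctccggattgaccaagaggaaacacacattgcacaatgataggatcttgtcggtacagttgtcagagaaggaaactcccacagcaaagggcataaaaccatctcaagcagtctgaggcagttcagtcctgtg

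RefSeq windows of 300 bases were at hand for 6 of the 9 genes, 7 windows in all with 2 for Spp1. None of the 7 held a CArG box, which 1.63% of all 32851 windows held, and none held one with 1 mismatch allowed (21.1% of all windows). The letters TATAAA occurred in 2 member windows, of Krt8 and Spp1 (13.6% of all). The letters GGGCGG, on either strand, were found in the windows of Krt7 and Epcam (35.7% of all). TGANTCA was in none (7.81% of all). These are matches of letters within short windows and say nothing of SRF binding elsewhere.

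None of the genes passed the test. Of the 15 probe sets, 13 were bright enough to be tested, at least 1 for each of the 8 genes. None had an adjusted p under 0.05 (limma, smallest 0.27), where 0.074% of all probe sets tested were called. At an unadjusted p under 0.05 there were 4, the 3 of Krt8 lower and that of Krt23 higher, against 13.8% of all probe sets tested, 6.18% lower and 7.6% higher. The groups did not overlap for 6, with all mutants lower for 3 (9.36% of all) and higher for 3 (13.8% of all). The median difference of the 13 was 0.18 and that of all 27022 tested was 0.08. The probe sets of 1 gene measure the same transcripts and are not independent.

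**Figure D1:**
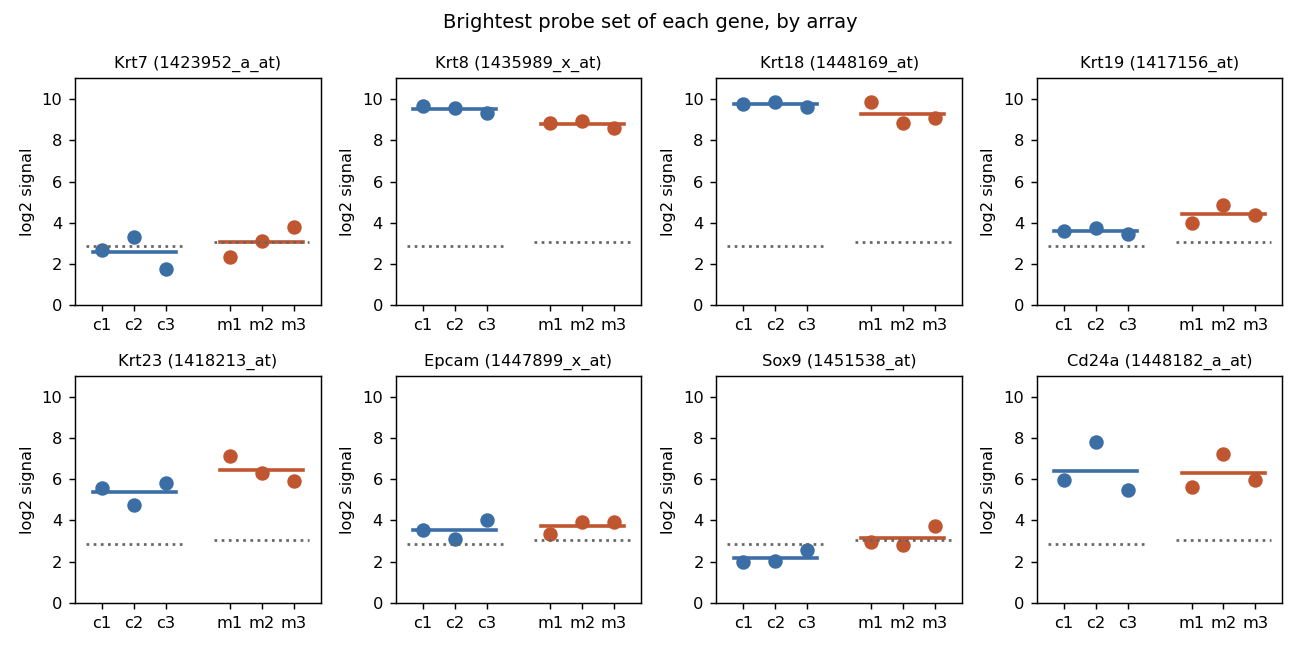
Log2 signal of the brightest probe set of each gene on control arrays c1 to c3 (blue) and mutant arrays m1 to m3 (orange); bars are group means and dotted lines the background estimates of 2.88 and 3.06. Krt8 lay lower on every mutant array, while Krt19, Krt23 and Sox9 lay higher, the latter close to background.

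Krt8 lay lower in mutant liver. Its brightest probe set (1435989_x_at) gave 9.67, 9.59 and 9.34 in controls 1 to 3, against 8.83, 8.95 and 8.62 in mutants 1 to 3. All mutant arrays were below all control arrays, and the mutants differed little among themselves on this probe set. The means were 9.54 ± 0.17 and 8.80 ± 0.16 (SD, n = 3), a log2 difference of -0.74 (SE 0.21, 95% confidence interval -1.23 to -0.25, adjusted p = 0.292, limma). Controls were thus 1.67-fold above mutants. The probe sets 1423691_x_at and 1420647_a_at gave differences of -0.77 and -0.75, again without overlap (adjusted p = 0.27 and 0.311, limma). On 1420647_a_at the mutants spread more, at 8.93, 8.77 and 8.27 (SD 0.34, against 0.14 in controls). The 3 probe sets of Krt8 gave the same direction and nearly the same size. The suffix x_at, carried by 1435989_x_at and 1423691_x_at, marks probes that can detect related transcripts. The part of such transcripts in these values was not tested.

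Krt18, the partner of Krt8, split the mutants on the trimmed-mean scaling. Its single probe set (1448169_at) gave 9.77, 9.84 and 9.62 in controls, against 9.85, 8.83 and 9.08 in mutants 1 to 3. Mutants 2 and 3 lay below the controls, and mutant 1 lay at their upper end. The log2 difference was -0.49 (SE 0.29, 95% confidence interval -1.16 to 0.18, adjusted p = 0.441, limma). Mutant 1 was also the array with the highest 3' to 5' index, and the part of this in the result was not tested. Without mutant 1 the difference was -0.79, without mutant 2 it was -0.28, and with the index as a covariate -1.02, none past the threshold. On the deposited scaling (-0.94) and with arrays centred on their median (-0.72) all mutants lay below all controls, again without passing. Whether the difference of Krt18 departs from that of Krt8 was not tested.

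Of 11 hepatocyte markers on the array, all above background, 3 had a lower mean in mutants (Krt8, Krt18 and Apob, the apolipoprotein of secreted lipid particles). Krt8 was the 1 marker lower on every mutant array (10.8% of all genes tested were). On the trimmed-mean scaling 6 were higher on every mutant array (14.1% of all), and on the deposited scaling the groups overlapped for each of the 6. Alb gave 12.82, 12.53 and 12.64 in controls, against 13.30, 12.87 and 13.01 in mutants (adjusted p = 0.404, limma). The apolipoprotein Apoa1 lay between 13.03 and 13.28 in controls and between 13.31 and 13.77 in mutants, and Fgb, the fibrinogen beta chain, overlapped. The summed scaled signal of the hepatocyte list was between 47443 and 53237 in controls and between 57127 and 71327 in mutants. In whole tissue, fewer cells of a type and less RNA per cell cannot be told apart.

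The 5 genes outside the set whose profile over the 6 arrays was most like that of Krt8 were Selenoh, Mcm10, Igf1, Ctsc and Ifit1. Likeness was the Pearson coefficient, between 0.992 and 0.997, and each of the 5 was lower in mutants. Their log2 differences were between -3.04 (Mcm10, a DNA replication factor) and -1.49 (Ifit1, an interferon-induced gene). Such coefficients over 2 groups of 3 arrays include the group difference, and are given as a description.

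**Figure D2:**
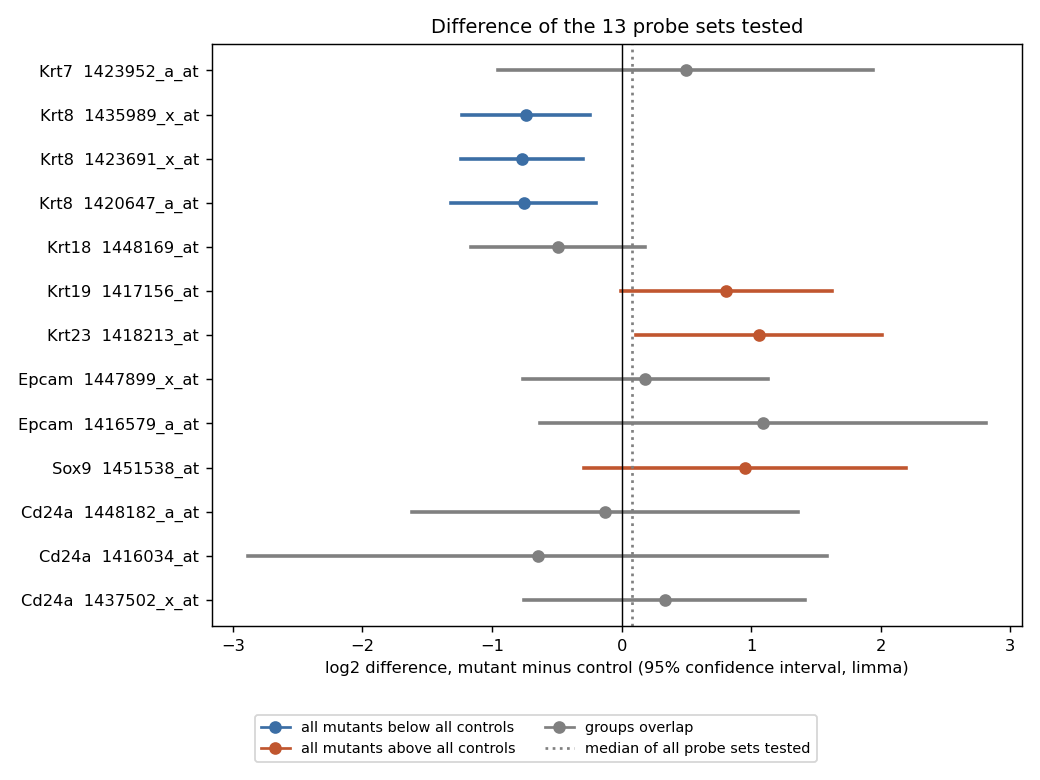
Log2 difference, mutant minus control, of the 13 probe sets tested, with 95% confidence intervals from limma. The intervals of the 3 Krt8 probe sets lie below 0, that of Krt23 lies above 0, and the others include 0.

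Krt23 lay higher in mutant liver. It encodes a type I keratin that is scarce in normal liver and known to be induced in injured liver. Its probe set (1418213_at) gave 5.59, 4.75 and 5.84 in controls, against 7.12, 6.33 and 5.92 in mutants 1 to 3. All mutants were above all controls, although mutant 3 exceeded control 3 only slightly. The means were 5.40 ± 0.57 and 6.46 ± 0.61 (SD, n = 3), 2.09-fold higher in mutants, a log2 difference of 1.06 (SE 0.41, 95% confidence interval 0.11 to 2.01, adjusted p = 0.344, limma). It was 0.31 with the 3' to 5' index as a covariate and 0.61 on the deposited scaling.

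Krt19, the type I keratin of bile ducts, was dim but above background on each array. Its probe set (1417156_at) gave 3.58, 3.76 and 3.48 in controls, against 4.01, 4.85 and 4.38 in mutants. The groups did not overlap, and mutant 2 was highest. The means were 3.61 ± 0.14 and 4.41 ± 0.42 (SD, n = 3), 1.75-fold higher in mutants, a log2 difference of 0.81 (SE 0.35, 95% confidence interval -0.01 to 1.62, adjusted p = 0.364, limma). On the deposited scaling it was 0.36, with overlapping groups. A floor of 16 gave 0.41, log2(signal + 32) gave 0.28, and the 3' to 5' index as a covariate gave 1.34.

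Krt7, the type II keratin of bile ducts, was at background. Its probe set (1423952_a_at) gave 2.69, 3.32 and 1.74 in controls, against 2.36, 3.10 and 3.77 in mutants. Only control 2 among the controls, and mutants 2 and 3, lay above the background estimate. The groups overlapped, with a log2 difference of 0.49 (95% confidence interval -0.95 to 1.94, adjusted p = 0.706, limma). It was 0.04 on the deposited scaling, 1.38 with the 3' to 5' index as a covariate and between 0.07 and 0.86 with 1 array left out.

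Sox9 was close to background on all 3 of its probe sets, which disagreed. The probe set tested (1451538_at) gave 1.99, 2.03 and 2.55 in controls, all below background, and 2.93, 2.80 and 3.71 in mutants, of which only mutant 3 was above it. The groups did not overlap (fitted log2 difference 0.95, adjusted p = 0.425, limma). The mutant mean was at least 1.2-fold above the control background, a bound that rests on mutant 3. At 3.15, that mean was close to the mutant background of 3.06. The difference was 0.50 on the deposited scaling, where the groups overlapped, and 0.17 with log2(signal + 32). The probe set 1424950_at gave between 1.65 and 2.45 in controls, and 0 (the floor) in mutant 1 with 2.87 and 3.09 in mutants 2 and 3. The third, 1433889_at, stayed below background in both groups. Both of the latter were too dim to be tested in the reported fit.

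Epcam gave no common direction over its arrays. The brighter probe set (1447899_x_at) read 3.53, 3.08 and 4.04 in controls, against 3.36, 3.91 and 3.91 in mutants, overlapping, with a log2 difference of 0.18 (95% confidence interval -0.76 to 1.13, adjusted p = 0.841, limma). The other probe set (1416579_a_at) was below background in all controls and in mutant 1, and read 4.08 and 3.82 in mutants 2 and 3. Its fitted log2 difference was 1.09, and it did not pass (adjusted p = 0.49, limma). Its mutant mean was at least 1.28-fold above the control background, a bound that rests on mutants 2 and 3. At 3.23, that mean was close to the mutant background of 3.06.

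**Figure D3:**
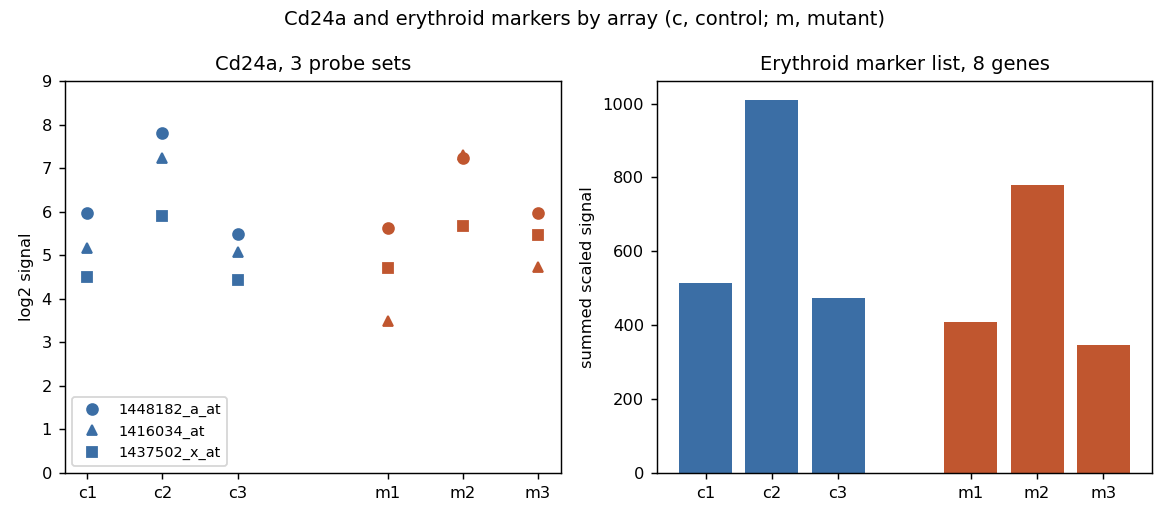
Left, log2 signal of the 3 Cd24a probe sets by array. Right, summed scaled signal of 8 erythroid markers on the same arrays. Control 2 and mutant 2 were the highest of their group in both panels, and had the lowest 3' to 5' index of their group.

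Cd24a varied within the groups more than between them. The brightest probe set (1448182_a_at) gave 5.96, 7.80 and 5.48 in controls, against 5.64, 7.24 and 5.98 in mutants. Control 2 and mutant 2 were the highest arrays, and the other 4 lay close together. The log2 difference was -0.13 (SE 0.65, 95% confidence interval -1.62 to 1.36, adjusted p = 0.935, limma). On 1416034_at control 2 gave 7.23 and mutant 2 gave 7.30, and the other arrays lay between 3.49 and 5.16. On 1437502_x_at the highest values were again those of control 2 (5.91) and mutant 2 (5.67). The 3 probe sets gave differences of either sign, from -0.65 to 0.33.

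Cd24a is also made by developing red and white blood cells. The summed signal of 8 erythroid markers on the array was 513, 1011 and 474 in controls, against 409, 780 and 347 in mutants. In each group the array highest for Cd24a, number 2, was the highest for this list. Of the 8 markers, 5 were above background in a group. Slc4a1, the red cell anion exchanger, was named after its values were seen. It gave 4.69, 6.25 and 4.19 in controls, against 3.44, 5.80 and 3.70 in mutants. Alas2, the erythroid enzyme of heme synthesis, gave 7.71, 8.68 and 7.99 in controls, against 2.77, 8.27 and 4.42 in mutants. Whether the other markers of the list share the array order of Slc4a1 and Alas2 is not shown here. The mesothelial list, given with the other markers, was likewise highest on array 2 of each group. The B cell list showed no such order (90.7, 89.7 and 92.7 in controls; 65.9, 79.4 and 87.0 in mutants). Control 2 and mutant 2 also had the lowest 3' to 5' index of their groups (0.78 and 1.18). Their trimmed means before scaling were the highest of their groups (69.9 and 58.1). With the index as a covariate the 3 Cd24a probe sets gave differences of 1.24, 1.88 and 1.21 (adjusted p = 0.929 for each, limma). The parts of blood cells, RNA integrity and array brightness in the Cd24a signal were not tested.

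Other markers of the duct and of neighbouring cell types give the context of these values. Of 15 cholangiocyte markers, of which 7 are among the genes above, 12 were on the array, 7 were above background in at least 1 group, and Cldn7, Ehf, Cftr, Sctr and Tspan8 had means below it in both. The list's summed signal lay between 189 and 366 in controls and between 227 and 404 in mutants, and Cd24a, Krt23 and Prom1 were its brightest genes. Mesothelial cells, which cover the liver and also make Krt7 and Krt19, had 6 of 9 markers above background in a group, with sums of 58.5 to 114 in controls and 61.9 to 93.8 in mutants. Stellate cell and fibroblast markers summed to between 2720 and 2981 in controls, and to 861, 2860 and 1530 in mutants 1 to 3. Macrophage markers summed to between 1782 and 2466 in controls and between 1251 and 1933 in mutants, and endothelial markers to between 842 and 1247 and between 482 and 1638. T cell, neutrophil, pancreatic acinar and intestinal lists had 4 of 7, 7 of 9, 4 of 7 and 3 of 9 markers above background in a group. Their sums were 46.5 to 87.6, 151 to 356, 308 to 530 and 483 to 790 in controls. In mutants they were 36.8 to 111, 137 to 508, 156 to 245 and 282 to 322. Fabp2, a fatty acid binding protein and the brightest gene of the intestinal list, gave 9.57, 8.75 and 9.29 in controls, against 4.48, 8.04 and 7.78 in mutants. The part of other cell types in the differences of the keratins was not tested.

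Further genes of bile duct epithelium went both ways. Of 30 listed, 19 were tested and none passed (limma), where 0.114% of all genes tested were called. At an unadjusted p under 0.05, 4 were higher and none lower, where 14.4% of all genes tested had such a p, 7.36% higher and 7.01% lower. All mutants were above all controls for 4 genes (14.1% of all genes tested) and below them for 1 (10.8% of all). The median log2 difference was 0.14, and 0.06 over all 13144 genes. Tff2 (1422448_at), a secreted trefoil peptide of mucous epithelia, gave 1.47, 2.31 and 0 (the floor) in controls, all below background, and 4.31, 4.15 and 4.54 in mutants, at least 2.74-fold above it (adjusted p = 0.191, limma). Bicc1 (1423484_at), an RNA-binding protein whose loss gives cysts in kidney and bile ducts, gave 4.60, 4.87 and 5.01 in controls, against 5.74, 5.79 and 6.06 in mutants, 2.05-fold higher (adjusted p = 0.257, limma). The protease Mmp7 and the epithelial annexin Anxa13 had differences of 1.69 and 1.48, without overlap. Lower values that did not pass were those of Pkhd1 (-2.20, all mutants below all controls), the gene of the duct protein fibrocystin, of the transcription factor Onecut1 (-1.23, overlapping) and of Cdh1 (E-cadherin, -0.63, overlapping). For Pkhd1, mutant 1 was at the floor, and controls gave 5.29, 4.90 and 5.24, against 4.76 and 4.06 in mutants 2 and 3.

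**Figure D4:**
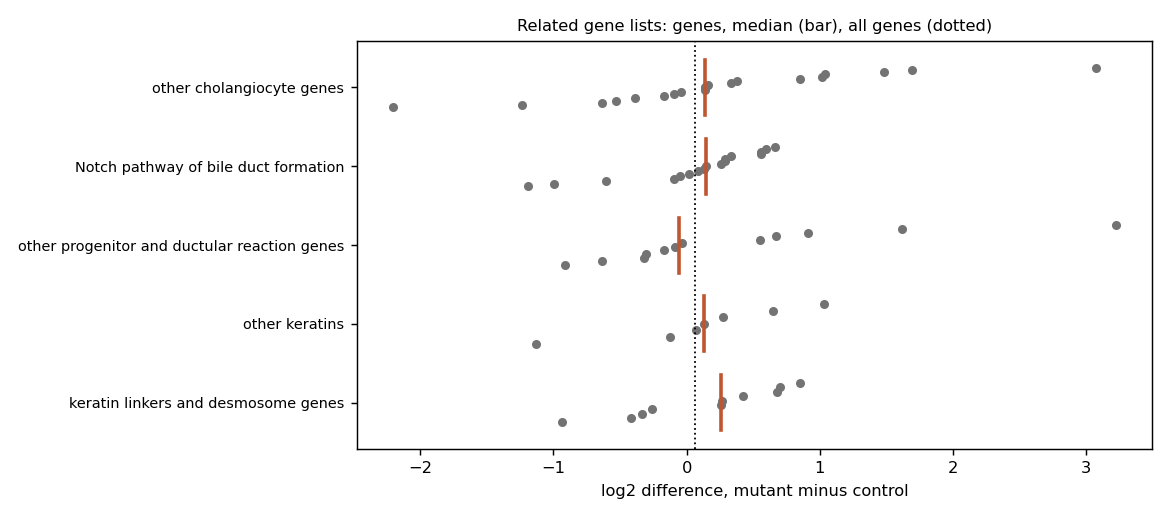
Log2 difference, mutant minus control, of each tested gene in the 5 related lists (points), with the list median (bar) and the median of all genes at 0.06 (dotted). The medians lie between -0.06 and 0.26, and the points spread to both sides of 0 in each list.

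Notch signalling, in which Jag1 on portal mesenchyme activates Notch2 on neighbouring hepatoblasts to form ducts, had 17 of 19 genes tested. None passed, and none had an unadjusted p under 0.05 (limma). The median was 0.14. The ligand Jag1 gave 4.65, 3.81 and 4.37 in controls, against 4.91, 4.84 and 4.75 in mutants, a difference of 0.56 without overlap. The ligand Dll4 and the coactivator Maml1 were likewise higher on every mutant array (0.66 and 0.55), and the hairy-related factor Hes6 had -0.61 with overlap. Thus 3 of the 17 were higher on every mutant array, where 14.1% of all genes tested were. On the deposited scaling the groups overlapped for each of these 3.

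Of 18 further genes of progenitor cells and ductular reaction, 12 were tested and none passed (limma), with 2 higher and none lower at an unadjusted p under 0.05 (7.36% and 7.01% of all genes tested). Their median was -0.06. Tnfrsf12a (1418571_at), the receptor of the progenitor mitogen TWEAK, gave 2.58, 4.19 and 3.80 in controls, against 9.04, 4.87 and 6.34 in mutants 1 to 3. All mutants were higher, mutant 1 by far the most (log2 difference 3.22, SE 0.96, adjusted p = 0.296, limma). Gpc3 (1450990_at), a cell surface proteoglycan of fetal liver, gave 3.26, 3.80 and 3.67 in controls, against 4.65, 4.83 and 6.09 in mutants, 3.06-fold higher (adjusted p = 0.284, limma). The fetal serum protein Afp had -0.91 with overlapping groups, and Lgr5, a receptor of Wnt-responsive cells, 0.55 without overlap.

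Of 23 further keratins 7 were tested, and none passed or had an unadjusted p under 0.05 (limma), with a median of 0.13. The epidermal Krt10, the brightest, gave 4.62, 4.76 and 5.02 in controls, against 5.96, 4.90 and 5.50 in mutants, which overlapped. Krt71, Krt5 and Krt4 had differences of -1.13, 1.03 and 0.27, each with overlap. Of 13 genes that link keratins to desmosomes and other structures, 10 were tested and none passed (limma), with 1 lower and 1 higher at an unadjusted p under 0.05 (7.01% and 7.36% of all genes tested). Their median was 0.26. The desmosomal cadherin Dsg2 (1439476_at) gave 9.34, 9.13 and 8.92 in controls, against 7.28, 8.56 and 8.73 in mutants 1 to 3. Like Krt8 it was lower on every mutant array (-0.94, adjusted p = 0.355, limma), with mutant 1 the lowest. The plakin Ppl gave 4.44, 4.85 and 4.74 in controls, against 5.29, 5.74 and 5.55 in mutants (0.85, adjusted p = 0.315, limma). Jup (plakoglobin) and the plakin Dst had 0.42 and 0.70, Jup without overlap.

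The median of the progenitor genes was negative under all 4 scalings, and the sign of the other 4 list medians depended on the scaling. On the deposited scaling all 5 were negative, from -0.54 for the progenitor genes to -0.19 for the keratin linkers, beside -0.39 for all genes. With arrays centred on their median, the linkers had 0.03 and the other 4 were negative, beside -0.17 for all genes. After quantile normalization the medians were -0.18 for the progenitor genes, -0.04 for the further keratins and positive for the other 3 lists. Among the list genes named above without overlap, the deposited scaling gave overlapping groups for Jag1, Dll4, Maml1, Bicc1, Anxa13, Gpc3, Lgr5, Ppl and Jup. The groups stayed apart on that scaling for Tff2, Mmp7, Tnfrsf12a, Pkhd1 and Dsg2.

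**Figure D5:**
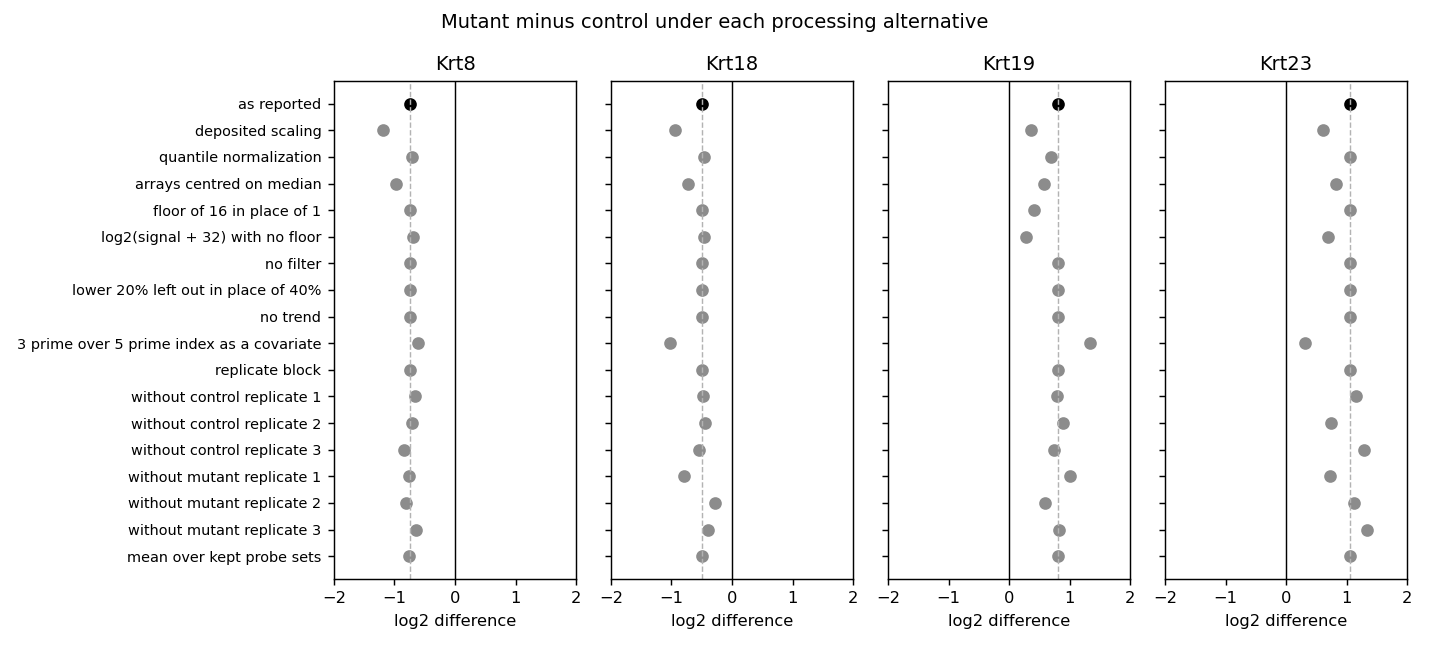
Log2 difference, mutant minus control, of the brightest probe set of 4 keratins as reported (black) and under 17 processing alternatives (grey). Krt8 and Krt18 were negative and Krt19 and Krt23 positive in each, with Krt8 between -1.19 and -0.62.

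By its brightest probe set, Krt8 kept a negative difference across 17 alternatives of processing. This difference ran from -1.19 on the deposited scaling to -0.62 with the 3' to 5' index as a covariate (adjusted p 0.101 to 0.929, limma). The 3 probe sets of Krt8 kept the groups apart under each of the 3 other scalings. Krt18 was separated, with mutants below controls, on the deposited scaling and with arrays centred on their median. Krt23 was separated after quantile normalization and overlapped under the other 2 scalings.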

How the data were processed

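Biotin-labelled liver RNA of 6 mice was hybridised to 1 Affymetrix array each. The deposited table holds 1 linear intensity per probe set and array, made by the authors with GCOS, the Affymetrix scanner software, per the submitters' processing notes; the sources used here do not give algorithm or scaling. Trimmed means (2% at each end) differed between 37.3 and 69.9, so arrays were scaled to their common mean. Signals under 1 were set to 1 (12.4% to 17.1% per array) and log2 was taken. The dimmest 40% of probe sets were left out (mean under 2.10), which left 27022. Groups came from the titles. The test was lmFit with eBayes of limma 3.58.1 (R 4.3.3) with a variance trend, two-sided, Benjamini-Hochberg over all probe sets tested, threshold 0.05. The limma fit was run on simulated log2 values, and the scaling, floor and filter were not tested in this way. Where 1 value stands for a gene, it is the brightest probe set. Symbols were updated through Entrez identifiers. Where a control mean lay below background, a fold is a lower bound of the mutant mean over the control background, which was lower than the mutant background.

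The members and lists were chosen with earlier results of these data known. Named are all members, up to 4 genes of each list with the smallest p, up to 3 of the brightest of each marker list, the 5 genes most like the member with the smallest p, and Srf; Slc4a1, Apob, Pkhd1, Onecut1, Cdh1 and the markers below background were named after their values were seen. Alternatives covered scaling, floor, filter, variance trend, RNA integrity, the replicate number as a block and each array left out. Per the design text the 3 arrays of a group come from 3 mice, and the titles name no pairing. Same-numbered arrays had deviations that correlated at -0.04, 0.02 and 0.04, and differently numbered arrays at between -0.10 and 0.08. With 3 arrays per group these coefficients cannot show whether the numbers pair the arrays.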

Additional observations from a re-analysis of the deposited data

How the results depend on the processing

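None of the member probe sets passed the threshold in any alternative (limma), nor did a list gene in the 3 other scalings fitted for the lists. The smallest adjusted p of a member was 0.0829 (limma), for the Krt8 probe set 1423691_x_at without mutant 2. Over all probe sets the 20 calls (4 higher, 16 lower) became 35 on the deposited scaling (3 higher, 32 lower), 9 with a floor of 16, 107 with log2(signal + 32), 52 with the lower 20% left out, 9 without the variance trend and 5 with the 3' to 5' index as a covariate. Without the filter there were 0 (limma; at an unadjusted p under 0.05, 2876 were higher, 1828 lower). Leaving out 1 array gave 2 to 576 calls: 4, 2 and 3 without control 1, 2 or 3, and 126, 576 and 8 without mutant 1, 2 or 3. The fit with the replicate number as a block gave 22 calls, 3 higher and 19 lower, and changed no call of a member. The median difference of all genes was 0.06 as reported, -0.39 on the deposited scaling and -0.17 with arrays centred on their median.

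By their brightest probe set, Krt7, Krt8, Krt18, Krt19, Krt23 and Sox9 kept their direction in all alternatives that tested it. The dimmer Sox9 probe sets, tested only in some alternatives, gave either sign. Without the filter, 1424950_at had -0.06 and 1433889_at -0.38, and without mutant 1 the former had 0.94. Epcam turned negative on the deposited scaling (-0.27), with arrays centred on their median (-0.050) and with a floor of 16 (-0.012), and ranged from -0.053 to 0.43 with 1 array left out. On its brightest probe set Cd24a turned positive with the 3' to 5' index as a covariate (1.24) and ranged from -0.61 to 0.56 with 1 array left out. The cause was not tested. Precision is limited by 3 arrays per group and, for Krt7, Sox9 and Epcam, by signals near background.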
